A study of Mus musculus with 25 samples.

Results

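Gene expression in whole mouse liver was compared across the last day of fetal life, from embryonic day 17.5 (E17.5) to embryonic day 18.5 (E18.5). The comparison used 3 of the 25 arrays of the series, the 2 arrays of E17.5 and the single array of E18.5, and covered all 18194 genes that could be named. The arrays were chosen by their titled stage, not by their values. All animals were C57/B6 mice, described by the submitters as random-bred and without any treatment. The series follows the liver over 14 stages, 8 of them fetal, up to 18 weeks after birth. The labels describe each stage as pooled livers, 3 at E16.5 and at every later stage, and do not say whether repeat arrays came from separate pools. Of the stages, 11 had 2 arrays while E18.5, Day7 and Day14 had 1. Besides E17.5 and E18.5, the 2 arrays each of E16.5, of the day of birth (Day0) and of day 3 after birth (Day3) were used to ask which changes were still present after birth. No animal was measured on its own.

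In the last days before birth the liver is still a blood-forming organ, while its hepatocytes take on the metabolic work of the adult organ. Enzymes that release glucose, burn fatty acids, detoxify ammonia and drugs and break down amino acids are known to be switched on around birth. Known signals are glucocorticoids, and the rise in glucagon and fall in insulin that follow the loss of the placental supply. Adult hepatocytes also divide labour along the lobule, with glucose release and urea synthesis on the portal side and many cytochrome P450 enzymes near the central vein.

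Values are given as log2 intensity, so that a difference of 1 is 2-fold, and levels of different genes are not set against each other because probe sets differ in brightness. A gene was called when the Benjamini-Hochberg adjusted p of limma, over all 18194 genes, was under 0.05 and the change was at least 2-fold. The spread came from the repeat arrays. Adjusted p-values therefore measure only the spread between these arrays, which may be technical, and the single E18.5 array was assumed to vary like the others.

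The label of liver held in the arrays compared. Albumin (Alb) read 14.17 and 13.83 at E17.5 and 14.35 at E18.5, transthyretin (Ttr) 13.56 and 13.34 against 13.91, and Apoa1 13.74 and 13.42 against 13.92. None of these hepatocyte markers was called. The E17.5 repeats correlated at r = 0.996 across genes, with a standard deviation of 0.129 between repeats. The corresponding values were 0.128 at E16.5, 0.21 at Day0 and 0.216 at Day3. Across the 18194 genes E18.5 correlated with Day3 at r = 0.960, with E17.5 at 0.959, with Day0 at 0.952, with Day7 at 0.944 and with E16.5 at 0.940.

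The comparison had 3 features that touch the results below. The E18.5 array carried skeletal muscle transcripts, which are described separately. The pools differed in their sex marks. Xist, the RNA that coats the inactive X chromosome of female cells, read 7.20 and 7.35 at E17.5, 10.53 at E18.5, and between 9.96 and 10.54 on the 4 arrays of Day0 and Day3. Eif2s3y, which lies on the Y chromosome, read 8.04 and 7.70 at E17.5, 4.59 at E18.5, and at most 4.19 on the arrays of Day0 and Day3. The E16.5 pool resembled E17.5, with Xist at 7.69 and 7.94 and Eif2s3y at 8.14 and 7.70. The sex makeup of the pools thus moved with the comparison, and its part in any one change cannot be told apart from stage. Many genes shifted at E18.5 and again at the other stages with 1 array, as shown at the end. Because E18.5 has 1 array, no count of the step can be made without it. The step from E17.5 to Day0, which leaves it out, had 475 genes higher and 229 lower.

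From E17.5 to E18.5, 422 genes rose, 2.32% of those tested, and 327 fell, 1.8%. At least 4-fold were 57 rises and 12 falls, at least 8-fold 19 rises and 1 fall, and at least 16-fold 5 rises and no fall. The median called rise was 1.28 log2 units (median SE 0.22) and the median called fall was -1.18 (median SE 0.24). The share of rises among the calls, 56.3%, depended on the scaling and on the E17.5 array. It was 64.4% with each array centred on its median and 30.8%, with 263 rises and 591 falls, with each array centred on 23 housekeeping genes, which moves the median of all genes to -0.16. It was 68.3% without E17.5 replicate 1 and 46.6% without replicate 2.

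A larger share of the rises than of the falls was also called after birth. More of all genes were called higher than lower at those stages too, and a difference beyond that was not tested. Of the 422 rises, 133 (31.5%) were also called higher at Day0 than at E17.5, 178 (42.2%) at Day3, and 112 (26.5%) at both, while 223 (52.8%) were called at neither. Of the 327 falls, 41 (12.5%) were also called lower at Day0, 32 (9.79%) at Day3, 22 (6.73%) at both and 276 (84.4%) at neither. Over all genes, 2.61% were higher and 1.26% lower at Day0 than at E17.5, and 2.76% higher and 0.764% lower at Day3. These comparisons share the E17.5 arrays with the step itself. With E16.5 as the baseline, which shares no array with the step, 166 of the rises (39.3%) were called higher at Day0, 220 (52.1%) at Day3 and 157 (37.2%) at both. The background there was 4.63% of all genes higher and 1.32% lower at Day0, and 5.05% higher and 0.813% lower at Day3. Of the falls, 50 (15.3%) were lower than E16.5 at Day0, 39 (11.9%) at Day3 and 35 (10.7%) at both. Counts from E16.5 also take in change before the step: Adh1, counted at Day3, was 2.01 above E16.5 but 0.19 above E17.5. The E16.5 pool also resembled E17.5 in its sex marks. A change that goes with sex would therefore count as kept from either baseline.

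**Figure D1:**
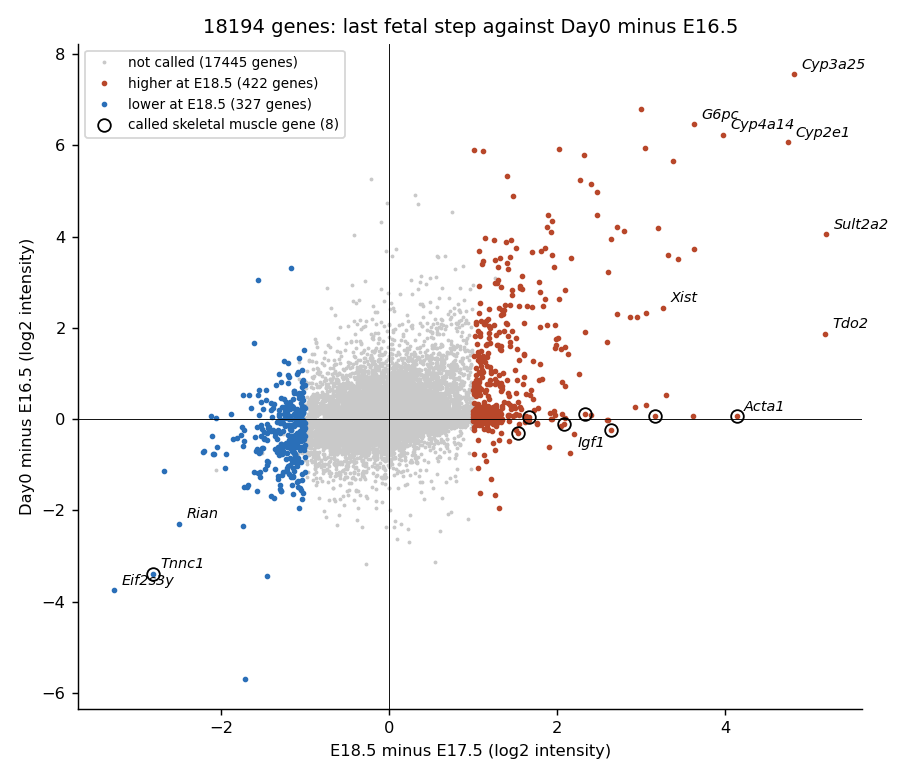
Each point is 1 of 18194 genes, plotted by its difference from E17.5 to E18.5 (horizontal axis, log2 intensity) and from E16.5 to Day0 (vertical axis, log2 intensity), which use no array in common. The 422 rises spread from genes that lay far above E16.5 on the day of birth, such as Cyp3a25 and Cyp2e1, to a band near 0 on the vertical axis that holds the 7 skeletal muscle rises, while the 327 falls spread around and below 0. Open circles mark the 8 called skeletal muscle genes, with Tnnc1 at the lower left.

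The step also differed from the one before it. From E16.5 to E17.5, 129 genes rose (0.709%) and 7 fell (0.0385%). A test of the change of step itself, E18.5 minus E17.5 less E17.5 minus E16.5, called 243 genes whose change was more upward in the last step (1.34%) and 311 whose change was more downward (1.71%). The split depended on the scaling, with 292 up and 245 down with each array centred on its median and 94 up and 635 down with housekeeping centring. The number rests on both E17.5 arrays: of 554 genes with both, it was 153 without replicate 1 (98 up, 55 down) and 215 without replicate 2 (93 up, 122 down).

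The largest rises outside muscle were genes of hepatocyte metabolism. Sult2a2, a sulfotransferase of steroids and bile acids, read 5.38 and 5.20 at E17.5 and 10.49 at E18.5, a 36.8-fold difference. It read 9.17 and 8.43 at Day0 and 10.46 and 9.81 at Day3. Tdo2, the tryptophan dioxygenase that starts the breakdown of tryptophan, read 4.05 and 4.04 at E17.5 and 9.23 at E18.5, a 36.5-fold difference. It was below 6.5 again at birth, at 6.49 and 5.68 at Day0 and 5.38 and 5.11 at Day3, then 11.72 at Day7. Cyp3a25, a drug- and steroid-oxidising P450, went from 4.77 and 5.01 to 9.71 and on to 12.27 and 11.64 at Day0. Cyp2e1, the pericentral P450 that oxidises ethanol and acetone, went from 7.43 and 7.37 to 12.15 and stayed there, at 12.17 and 11.43 at Day0 and 13.04 and 12.56 at Day3. The log2 differences were 5.20 for Sult2a2 (SE 0.25, limma adjusted p = 7.61e-09), 5.19 for Tdo2 (SE 0.28, 2.59e-08), 4.82 for Cyp3a25 (SE 0.27, 3.32e-08) and 4.75 for Cyp2e1 (SE 0.28, 5.22e-08). Tdo2 has 3 probe sets, whose differences ran from 0.58 to 5.19, and Sult2a2 and Cyp3a25 belong to families of near-identical genes that can share probes.

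The next 6 were Cyp4a14, G6pc, Apoc3, Saa1, Rnase4 and Apoa5, with log2 differences of 3.98, 3.63, 3.63, 3.62, 3.44 and 3.38. Rnase4 and its neighbour Ang, a pair of secreted ribonucleases transcribed from a shared locus, rose side by side. Rnase4 read 7.11 and 6.83 at E17.5 and 10.40 at E18.5, and Ang 6.61 and 6.41 against 9.83. The 3 probe sets of Ang ranged from 0.32 to 3.32. Saa1 differed from the other 5 in not lasting, as described with the acute phase genes.

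The 250 bases before the RefSeq start of 4 genes are printed from the RefSeq table of build GRCm38.p6, 5′ to 3′ on the gene's strand, to show the regions of a rise that stayed (Cyp2e1, chr7:140763569-140763818, plus strand), of a rise that was smaller at birth (Tdo2, chr3:81975729-81975978, minus strand), of a rise that went on (G6pc, chr11:101367466-101367715, plus strand) and of the leading muscle gene (Acta1, chr8:123894776-123895025, minus strand). The letters TATAAA, the core of a TATA box, are in capitals. They begin 31 bases before the start in Cyp2e1, 29 in G6pc, 7 in Acta1 and 229 in Tdo2.
Cyp2e1: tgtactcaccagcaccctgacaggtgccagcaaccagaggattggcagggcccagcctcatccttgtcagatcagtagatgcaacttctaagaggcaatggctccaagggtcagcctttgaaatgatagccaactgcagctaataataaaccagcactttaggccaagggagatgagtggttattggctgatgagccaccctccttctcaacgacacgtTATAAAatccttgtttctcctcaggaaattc
Tdo2: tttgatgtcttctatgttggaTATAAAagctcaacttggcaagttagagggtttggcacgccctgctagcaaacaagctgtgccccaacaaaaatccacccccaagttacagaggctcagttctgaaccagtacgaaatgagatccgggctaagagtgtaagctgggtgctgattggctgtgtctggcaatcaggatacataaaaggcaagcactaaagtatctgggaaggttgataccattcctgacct
G6pc: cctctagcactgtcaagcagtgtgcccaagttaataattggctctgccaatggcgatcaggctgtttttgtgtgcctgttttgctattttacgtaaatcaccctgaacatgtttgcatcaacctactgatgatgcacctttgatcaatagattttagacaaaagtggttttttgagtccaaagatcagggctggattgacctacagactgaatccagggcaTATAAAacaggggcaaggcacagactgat
Acta1: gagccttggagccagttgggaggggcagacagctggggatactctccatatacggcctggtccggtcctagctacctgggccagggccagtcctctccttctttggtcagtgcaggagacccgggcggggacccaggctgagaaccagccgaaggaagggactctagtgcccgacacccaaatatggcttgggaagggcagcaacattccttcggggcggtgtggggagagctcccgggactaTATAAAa

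Such windows were found for 90 of the 112 genes whose rise was kept at Day0 and Day3, with 112 windows among them, since a gene can have several starts. TATAAA, on either strand, was in 19.6% of these windows and in 12.4% of all 32851 windows of the table. TTGCNNAA, a C/EBP-type motif, was in 18.8% against 9.56%, and TGTTTAC, a FOXA-type motif, in 4.46% against 3.17%. The C/EBP-type and FOXA-type letters were not in the 4 windows printed. The motifs do not overlap one another in their letters as searched, were picked with the values known, and are a description of these windows only.

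Cytochrome P450 genes, the longest list of liver functions, gave more calls than any other such list. A larger share rose among periportal (8 of 15), urea cycle (7 of 17), pericentral (8 of 20) and acute phase (10 of 26) genes. Of 41 cytochrome P450 genes 15 rose and 1 fell, with a median difference of 0.66 against 0.01 over all genes. The shares over all genes were 2.32% rising and 1.8% falling, and each list count is to be read beside them. The 23 housekeeping genes, none of them called, had a median of 0.32 with 18 above 0, and the medians of the lists are to be read beside that value too. Beyond Cyp3a25 and Cyp2e1, Cyp4a14, which hydroxylates fatty acids, went from 5.28 and 5.49 to 9.36. Cyp2c37 went from 4.48 and 4.57 to 7.48, Cyp2d9 from 5.67 and 5.47 to 8.04 and Cyp3a11, a main drug-oxidising enzyme of mouse liver, from 10.45 and 10.16 to 12.25. All 4 were called higher than E17.5 at Day0 and at Day3 too. Cyp3a16, a fetal and neonatal member of the Cyp3a family, went the other way, from 8.72 and 8.32 to 7.45 (-1.07, SE 0.33), and was back at 8.97 and 8.39 at Day0. Among 40 conjugating and flavin enzymes 7 rose and 2 fell (median 0.40). Outside that list, Ces1c, a carboxylesterase secreted by the liver, went from 8.38 and 8.33 to 11.22, and the paraoxonase Pon1 from 8.72 and 8.46 to 11.30. The falling Gstm3, a glutathione transferase, read 9.38 and 9.61 at E17.5 and 7.96 at E18.5.

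Amino acid and nitrogen metabolism followed. Of 40 genes of amino acid breakdown 12 rose and none fell (median 0.66). After Tdo2 the largest was Tat, the glucocorticoid-responsive tyrosine aminotransferase, from 6.65 and 6.64 to 9.05, which then stood at 12.07 and 11.49 at Day0. Mat1a, which makes S-adenosylmethionine in the adult liver, went from 9.75 on both arrays to 11.68, Agxt, which clears glyoxylate, from 7.18 and 7.14 to 9.01, and Bhmt, which remethylates homocysteine, from 11.12 and 10.87 to 12.60. Of 17 genes of the urea cycle and nitrogen transfer 7 rose and 1 fell (median 0.80). Cps1, which commits ammonia to the cycle, went from 11.52 and 11.24 to 12.67, Arg1, which releases urea, from 10.86 and 10.61 to 12.14 and Asl, which splits argininosuccinate, from 8.39 and 8.26 to 9.57. Asl rose on to 12.08 and 11.38 at Day0, and Otc, the second enzyme of the cycle, did not follow it, as given below.

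Glucose release genes rose in part. Of 26 genes 7 rose and none fell (median 0.63). G6pc, the catalytic subunit that frees glucose from glucose 6-phosphate, read 5.56 and 5.88 at E17.5, 9.35 at E18.5 and 12.20 and 11.53 at Day0. Its difference of 3.63 had an SE of 0.30 (limma adjusted p = 2.68e-06). Pck1, which makes phosphoenolpyruvate, read 4.90 and 5.14, then 7.04, then 11.12 and 10.55. Its step before birth was 2.02 (SE 0.19) and E18.5 lay 3.80 below Day0, so most of its increase came after E18.5. The other enzymes of the path moved less, Fbp1 by 1.26 (SE 0.38) and Pcx by 1.19 (SE 0.25), and the glucose transporter Slc2a2 by 1.05 (SE 0.34). Of 33 genes known to respond to glucocorticoids or cAMP 9 rose and 1 fell at E18.5 (median 0.61), and 19 were called higher at Day0 than at E17.5. Among them Hsd11b1, which regenerates active glucocorticoid inside the cell, went from 10.28 and 10.10 to 11.29. The faller was Serpina6, the plasma carrier of glucocorticoid, from 11.68 and 11.51 to 9.88 (-1.72, SE 0.21), which stood at 6.54 and 6.46 at Day0.

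**Figure D2:**
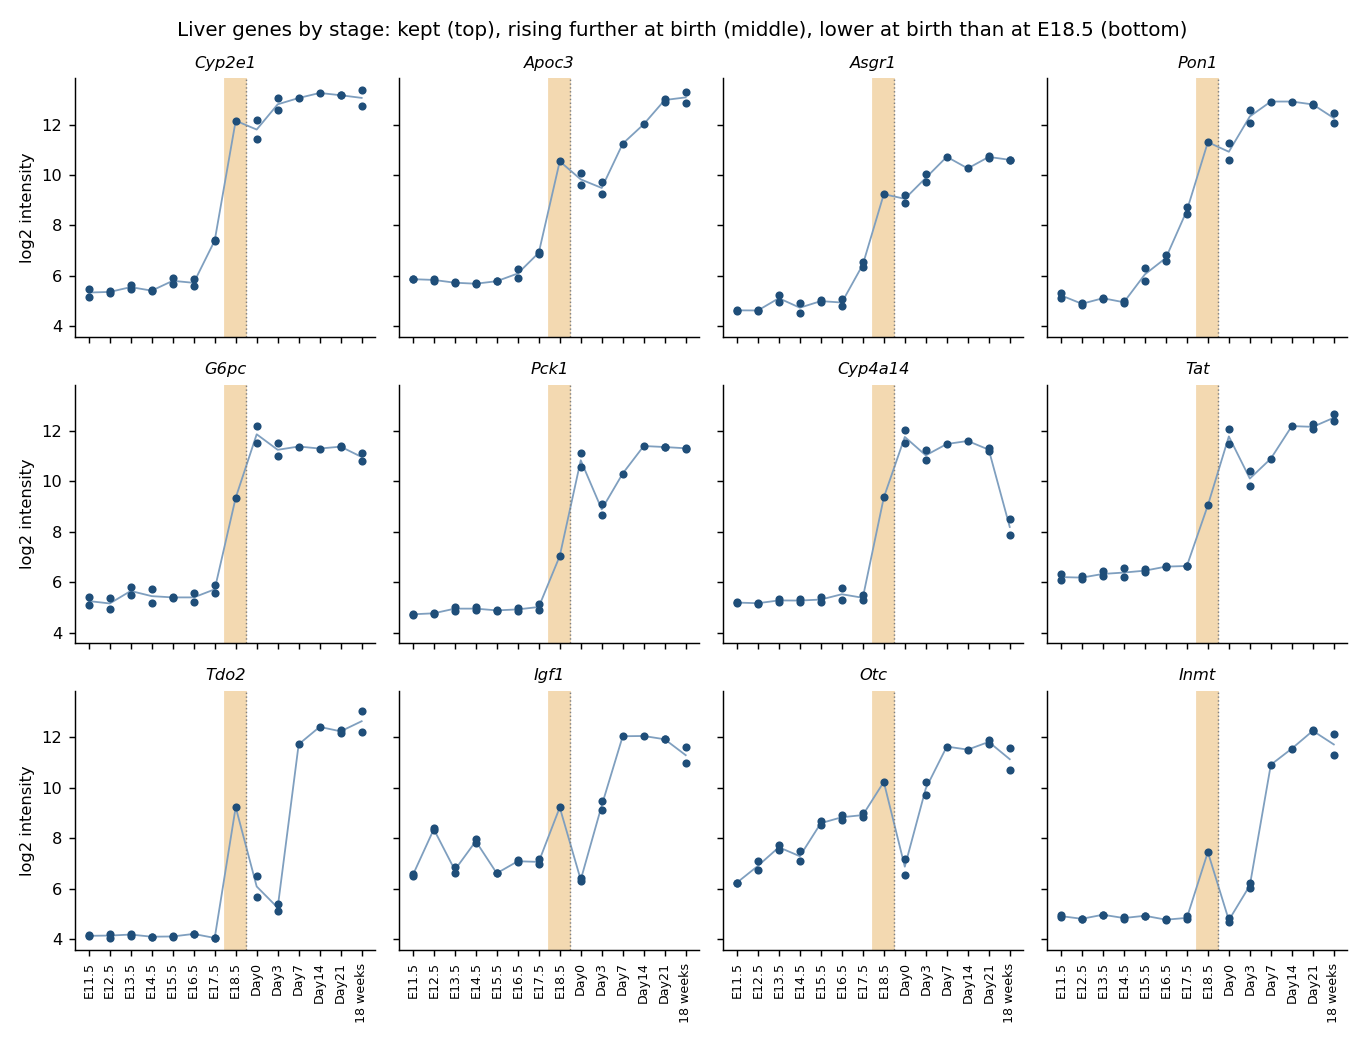
Log2 intensity of 12 liver genes at the 14 stages, with 1 point per array and lines through the stage means, where the shaded band marks E18.5 and the dotted line birth. The upper row holds genes that stayed near their E18.5 level at birth, the middle row genes that rose again between E18.5 and Day0, and the lower row genes that were lower on both Day0 arrays than at E18.5, such as Igf1 at 9.22 against 6.41 and 6.29.

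Genes of fatty acid oxidation and lipid transport were also among the rises. Of 40 genes of fatty acid oxidation and ketogenesis 12 rose and none fell (median 0.70). Cpt1a, the gate for fatty acid entry into mitochondria, read 8.27 and 7.94 at E17.5, 9.98 at E18.5 and 11.97 and 11.31 at Day0. Its 3 probe sets ranged from 0.51 to 1.87 over the step. Ehhadh, a peroxisomal enzyme of the same breakdown, went from 7.36 and 6.97 to 9.06, and Acaa1b, a peroxisomal thiolase, from 7.86 and 7.82 to 10.45. Outside the list, Hacl1, which shortens branched fatty acids, went from 6.86 and 6.45 to 9.71. The receptor Ppara, which drives many of these genes, missed the 2-fold threshold, at 8.63 and 8.43 against 9.23 (0.70, SE 0.24). Of 20 apolipoprotein and lipoprotein genes 5 rose (median 0.74). Apoc3, which slows the clearance of triglyceride, read 6.95 and 6.88 at E17.5 and 10.54 at E18.5, and Apoa5, which speeds it, 6.72 and 6.80 against 10.14. Apoc3 stood at 10.06 and 9.59 at Day0, while Apoa5 stood at 12.75 and 12.14. Of 39 lipogenesis genes 3 rose, all of them enzymes that lengthen or desaturate fatty acids: Elovl2 by 2.02, Fads2 by 1.43 and Elovl5 by 1.39. The 3 probe sets of Fads2 ranged from 0.16 to 1.43.

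Of 31 genes of bile acid synthesis and transport 10 rose and none fell (median 0.48). Slco1b2, a hepatocyte uptake carrier, read 6.25 and 6.07 at E17.5 and 9.36 at E18.5, though its 5 probe sets ranged from -0.09 to 4.08. The sodium-dependent uptake carrier Slc10a1 went from 10.13 and 10.06 to 11.80, and the canalicular export pump Abcb11 from 7.81 and 7.44 to 9.17. Cyp7a1, which starts the main route from cholesterol to bile acids and limits its rate, went from 7.95 and 7.82 to 9.40, and Cyp8b1, which sets the share of cholic acid, from 7.87 and 7.84 to 9.31. Of 22 genes of cholesterol synthesis only Insig2, a brake on the pathway, rose, by 1.30 (SE 0.26), and the median was 0.24. Such a count is near the 2.32% of all genes that rose. On the day of birth 12 of the 22 were called lower than at E17.5. Hmgcs1, which makes the HMG-CoA of the pathway, read 11.68 and 11.31 at E17.5 and 11.73 at E18.5, then 8.81 and 8.23 at Day0, and Idi1 read 9.67 and 9.47, 9.30, then 6.25 and 5.98.

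Secreted proteins of the hepatocyte gave rises of unequal persistence. Of 25 such genes 5 rose and 1 fell (median 0.49). Fgl1 went from 8.65 and 8.58 to 11.66, Hrg from 8.77 and 8.67 to 11.19 and Fetub from 8.48 and 8.22 to 10.62, and all 3 were called higher than E17.5 at Day0 and Day3. The asialoglycoprotein receptor subunit Asgr1, a surface marker of mature hepatocytes, went from 6.55 and 6.34 to 9.24 and stayed at 9.21 and 8.90 at Day0. Of 26 acute phase genes 10 rose (median 0.75), with 2 courses. Saa1, a serum amyloid A of inflammation, read 4.55 and 4.50 at E17.5, 8.15 at E18.5 and between 4.59 and 4.68 on the 4 arrays of Day0 and Day3, and was again 7.61 at Day7. Saa2 read 6.11 and 6.01, then 8.26, then 5.55 and 5.93 at Day0, and Orm1 4.28 and 4.36, then 5.82, then 4.43 and 4.30. Serpina3n, a protease inhibitor, instead went from 6.90 and 7.02 to 9.28 and on to 12.54 and 11.68, and haptoglobin (Hp) from 11.15 and 10.92 to 12.32 and then 12.83 and 12.15. Of 19 complement genes 3 rose (median 0.69), led by the lectin Mbl2 from 7.61 and 7.48 to 10.19, and of 23 clotting genes 3 rose (median 0.63), namely Fgb, F12 and F9. Of 23 interferon and MHC genes 4 rose (median 0.76), led by the antiviral Rsad2 at 1.88. Outside the list, Iigp1, an interferon-induced GTPase, read 8.32 and 7.97 at E17.5, 10.74 at E18.5 and 7.36 and 6.85 at Day0.

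Sorted by position in the lobule, 8 of 15 periportal genes rose (median 1.24) and 8 of 20 pericentral and Wnt genes rose while 1 fell (median 0.71). Some genes stand in several of these lists. Genes in any of the 56 lists made up 134 of the 422 rises and 19 of the 327 falls, from 1182 genes measured, so 288 rises and 308 falls lay outside them. The size of many list medians depended on the scaling. With quantile normalisation the median of the secreted proteins was 0.08, of 34 oxidative phosphorylation genes 0.20 against 0.61, of apolipoproteins 0.33 and of acute phase genes 0.32. It was 0.38 for complement, 0.30 for clotting, 0.22 for conjugating and flavin enzymes, 0.86 for periportal genes and -0.07 for housekeeping genes, and 0.67 for P450 genes. Of the 34 oxidative phosphorylation genes 1 rose, which is near the 2.32% of all genes that rose.

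**Figure D3:**
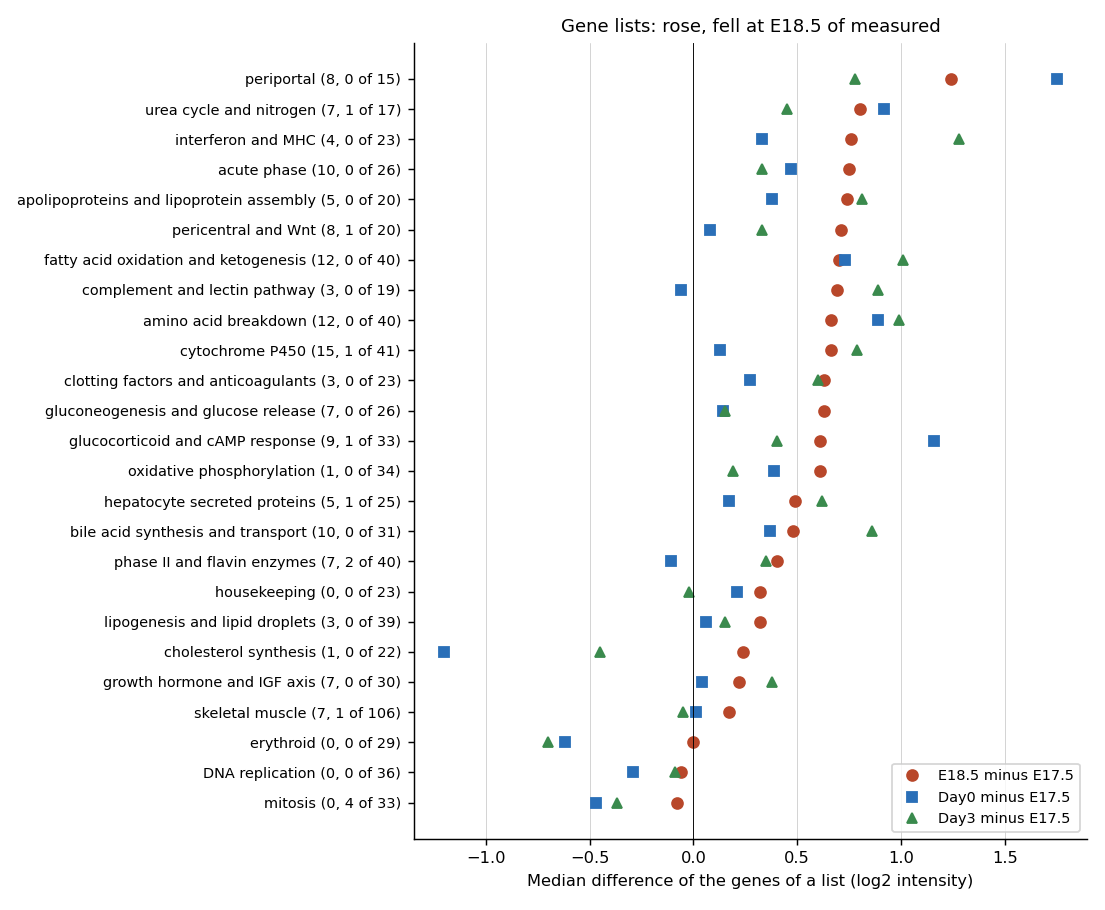
Median log2 difference from E17.5 of the genes of 25 lists at E18.5 (circles), Day0 (squares) and Day3 (triangles), which share the E17.5 arrays. The numbers beside each name give how many genes rose, fell and were measured at E18.5. The periportal list had the highest median at E18.5, 1.24, and the cholesterol synthesis list the lowest at Day0, -1.20.

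Growth control genes rose in several places. Of 30 genes of the growth hormone and IGF axis 7 rose and none fell (median 0.22). Igf1, the growth factor that growth hormone induces in liver, read 7.16 and 6.96 at E17.5, 9.22 at E18.5, 6.41 and 6.29 at Day0 and 9.49 and 9.10 at Day3, and its 4 probe sets ranged from 0.18 to 2.16. Socs2, an inhibitor that growth hormone signalling induces, followed a like order, with 6.21 and 6.17, then 8.45, then 6.74 and 6.91, then 8.90 and 8.85. Igfbp2, a carrier of IGFs, went from 8.39 and 8.17 to 11.28 and on to 12.84 and 12.11 at Day0. The fetal growth factor Igf2 was not called, at 12.56 and 12.42 against 12.98. Cdkn1c, an imprinted brake on the cell cycle, went from 9.95 and 9.56 to 10.82 and was 8.51 and 8.19 at Day0. Of 28 liver transcription factors Onecut1 rose, from 5.73 and 5.63 to 7.35, and Tcf7l2 and Zfhx3 fell. The 1 rise in 28 is near the 2.32% of all genes that rose, and 1.8% of all genes fell. Cebpa, which drives hepatocyte maturation, stayed under the threshold at 9.58 and 9.34 against 10.23 (0.77, SE 0.23).

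Many of the rises were higher at E18.5 than on the day of birth. Of the 422 rises 197 (46.7%) were called higher at E18.5 than at Day0, and 136 (32.2%) higher than at both Day0 and Day3. The rises were picked for being high on the same E18.5 array, so the selection itself raises these shares. A gene so called can still lie above E17.5 at Day0, as Ces1c did by 1.17. Over all genes, 2.25% were higher and 3.63% lower at E18.5 than at Day0, and 1.56% higher and 2.98% lower at E18.5 than at Day3. Several hepatocyte genes, most of them picked after their values were seen, were low at Day0 and higher again at Day3. Otc read 9.01 and 8.82 at E17.5, 10.23 at E18.5, 7.18 and 6.56 at Day0 and 10.23 and 9.71 at Day3, so E18.5 lay 3.35 above Day0 (SE 0.32, limma adjusted p = 3.97e-06). Its 3 probe sets disagreed over the step from E17.5, from -0.19 to 1.31, and with the sets that may match several transcripts left out Otc differed by -0.19. Akr1c6, a hydroxysteroid dehydrogenase, read 8.57 and 8.66, then 10.52, then 6.68 and 6.28, then 11.88 and 10.86. Cyp2f2, a periportal P450, read 6.75 and 6.60, then 9.73, then 6.58 and 6.39, then 9.48 and 9.39. Hao1, which oxidises glycolate, Fmo1, a flavin monooxygenase, and Adh1, the main alcohol dehydrogenase, had the same order, with E18.5 above Day0 by 2.84, 2.60 and 2.11. The pericentral Cyp1a2 was 7.40 at E18.5 against 5.13 and 5.15 at Day0, and Inmt, a methyltransferase of the adult liver, 7.45 against 4.84 and 4.66. Mug1, a plasma protease inhibitor of adult mice, was 7.30 against 4.77 and 4.52. In Otc, Akr1c6, Cyp2f2, Hao1, Fmo1, Adh1, Cyp1a2, Inmt and Mug1 both Day0 arrays were lower than E18.5, and the mean of Day21 was higher. By contrast 32 rises (7.58%) were called lower at E18.5 than at Day0, G6pc, Pck1, Tat, Cyp4a14, Cyp3a25, Apoa5, Serpina3n, Ehhadh, Cpt1a, Asl and Got1 among them.

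Skeletal muscle genes were set apart. Of 106 such genes 7 rose and 1 fell. Acta1, skeletal alpha-actin, read 5.51 and 5.34 at E17.5 and 9.56 at E18.5, and no other pool had a mean above 6.03. Myl1, a fast myosin light chain, read 5.20 and 5.21 against 8.37, and Mylpf, the fast regulatory light chain, 6.03 and 6.01 against 8.65. Tnnc2 and Tnnt3, subunits of fast troponin, rose by 2.33 and 1.67, and Myh8, the perinatal myosin heavy chain, by 2.07. Actc1, the cardiac actin also made in young muscle, rose by 1.54 but had been higher, at 7.92, in another fetal pool. None of the 7 rises was called at Day0 or Day3, where Acta1 read between 5.39 and 5.52, and 5 of the 106 genes stood at least 1 log2 unit above every other pool. Creatine kinase (Ckm, 0.90) and Eno3 (0.95) missed the 2-fold threshold, Myh3 differed by 0.78 and Tnni2 by 0.53. The myogenic factors Myod1 and Myog read 5.08 and 5.72 at E18.5 against 5.06 and 5.15, and 5.86 and 5.89, at E17.5, and none of 4 myogenic factors was called. The summed linear intensity of the 106 genes was 8340 at E18.5 and between 5578 and 6832 on the arrays of E16.5, E17.5, Day0 and Day3. Of 12 cardiac genes none was called at E18.5, where 2.32% of all genes rose and 1.8% fell. Of 9 smooth muscle genes Myh11 and Tagln were called.

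**Figure D4:**
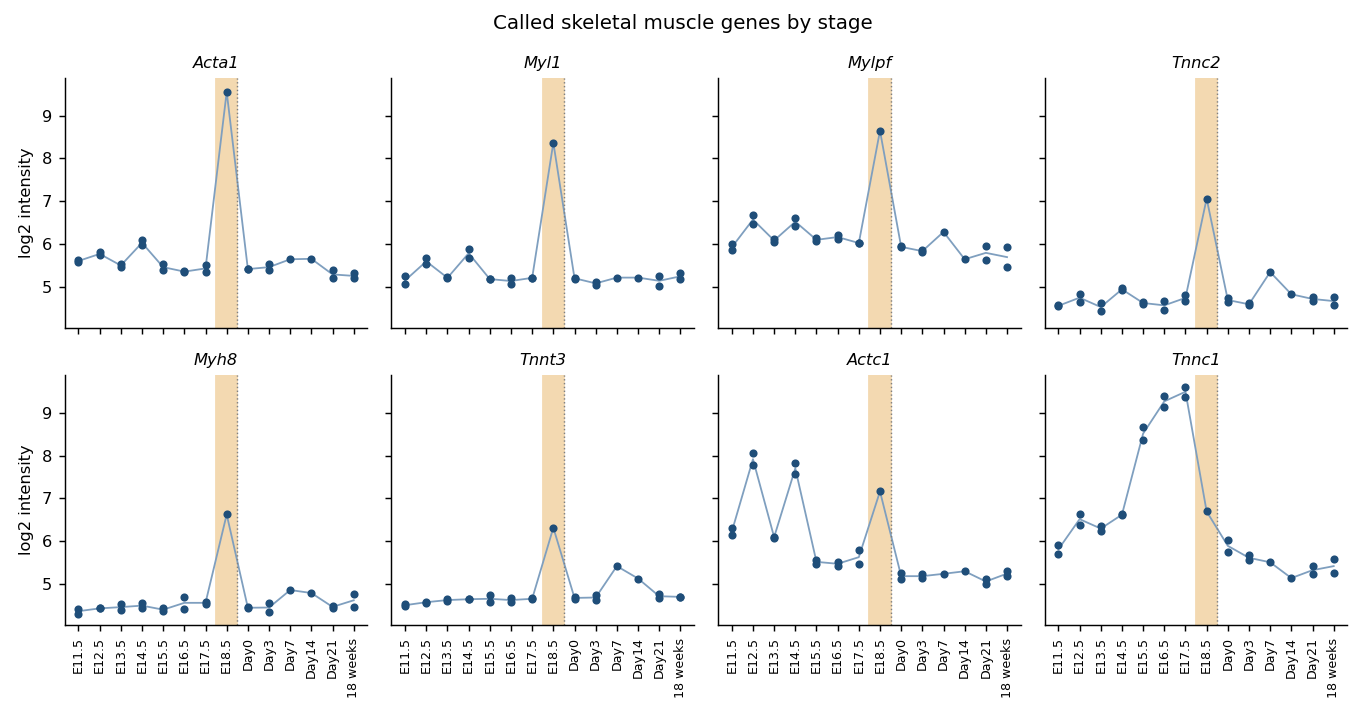
Log2 intensity of the 8 called skeletal muscle genes at the 14 stages, with 1 point per array, lines through the stage means, the shaded band at E18.5 and the dotted line at birth. Acta1 is at 9.56 at E18.5 and at or below 6.03 on average elsewhere, and Tnnc1 runs the opposite way, from 9.61 and 9.38 at E17.5 to 6.69 at E18.5.

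The 1 fall in the muscle list did not behave like the rises. Tnnc1, the troponin C of slow and cardiac muscle, read 9.40 and 9.14 at E16.5, 9.61 and 9.38 at E17.5, 6.69 at E18.5, 6.02 and 5.75 at Day0 and 5.66 and 5.55 at Day3. Its fall of -2.80 (SE 0.18, limma adjusted p = 1.62e-07) was kept after birth. With the skeletal, cardiac and smooth muscle lists left out, 413 rises and 326 falls remained, of which 112 (27.1%) and 21 were kept at both Day0 and Day3. The muscle genes' part in changes of genes that liver also expresses was not tested.

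Genes of blood and dividing cells were looked at as groups. None of 29 erythroid genes was called, where 1.8% of all genes fell, and 6 were called lower at Day0 than at E17.5. The erythroid median was 0.00 as deposited, -0.41 with quantile normalisation and -0.17 with housekeeping centring. The anion exchanger of red cells, Slc4a1, read 12.40 and 12.16 at E17.5 and 12.48 at E18.5, and was lower at E18.5 with quantile normalisation (-0.25). Gata1, the erythroid and megakaryocytic factor, missed the threshold at 9.86 and 9.80 against 9.07 (-0.76, SE 0.21). In pooled whole liver, fewer cells of a type and less RNA per cell cannot be told apart. None of 36 DNA replication genes was called, and of 33 mitosis genes 4 fell, Kif2c, Ttk, Cenpe and Ect2, while Mki67, the marker of cycling cells, read 11.77 and 11.46 against 11.68. The mitosis median was -0.08, and -0.32 with quantile normalisation. Kif2c, Ttk and Cenpe each had another probe set between -0.18 and 0.12. Prg2, the major basic protein of eosinophils, read 7.29 and 7.22 at E16.5, 5.15 and 5.11 at E17.5, 8.06 at E18.5 and 7.57 and 7.48 at Day0, so that the E17.5 pool was the low one. Among genes of support cells 5 of 24 stellate and mesenchymal genes rose (median 0.37), Col1a1 by 1.20 and Pdgfrb by 1.14, and neither was called at Day0 or Day3. A second probe set of Col1a1 differed by -0.14 and one of Pdgfrb by -0.24, and Col1a2, the partner chain, differed by 0.00. The embryonic beta-like globin Hbb-y went from 7.92 and 7.90 to 6.85. None of 17 clock genes or 26 immediate early genes was called. Over all genes 2.32% rose and 1.8% fell, so no call in lists of this size, DNA replication included, is near that share. Hamp, the iron hormone, which stood at 12.83 and 12.27 at Day0, had read 8.91 at E18.5 against 8.73 and 8.47.

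The falls outnumber the rises with the arrays centred on housekeeping genes, as given above. Of the 327 falls, 308 were of genes in no list and 19 of genes in some list. Of all genes 6.5% were in some list, a share near that of the falls, so it does not set the falls apart. After Eif2s3y and Tnnc1 the largest falls were Plk2, Rian, Dkc1, Opa3, 2810410L24Rik, Dmtf1, Coro1c, Spaca3 and Syap1, between -2.68 and -2.05. Coro1c had an SE of 0.72, Day0 repeats of 5.71 and 7.30, and 4 probe sets that ranged from -2.09 to 0.33. The probe sets of Dmtf1 ranged from -2.11 to -0.01 and those of 2810410L24Rik from -2.12 to 0.01. Rian, a long RNA of an imprinted cluster, averaged 9.84 over the E17.5 arrays and read 7.35 at E18.5, 7.37 and 7.35 at Day0 and 7.15 and 7.59 at Day3. Its 4 probe sets ranged from -2.63 to 0.21. Plk2, a stress-responsive kinase, read 7.67 and 7.63 at E17.5 and 4.97 at E18.5, but its Day0 repeats disagreed, at 6.03 and 7.69, as did its Day3 repeats, at 6.36 and 7.62. Its second probe set differed by -0.04. Opa3, a mitochondrial protein, read 8.20 and 8.34 against 6.06, with 7.05 and 8.53 at Day0 and another probe set at 0.28. Dkc1, which modifies ribosomal RNA, read 9.26 and 8.83 against 6.83 and read 8.43 and 8.05 at Day0, and its 3 probe sets ranged from -2.21 to -0.13. Besides Eif2s3y, Tnnc1, Rian and Serpina6, falls kept at both Day0 and Day3 included Tcf7l2, a Wnt effector, by -1.26, Psph, the last enzyme of serine synthesis, by -1.16, and Gstm3.

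Probe sets of a gene gave a second reading of the step. Of the 422 rises 203 had several sets, and in 50 of these (24.6%) a second set also rose by at least 1 log2 unit. Of the 327 falls 246 had several sets, and in 21 (8.54%) a second set fell by as much. Among the rises kept at Day0 and Day3, 48 had several sets and 21 of them (43.8%) had a second set moving alike. With the mean of all sets in place of the brightest, 386 genes were called, 278 of them rises (72%) and 108 falls. The sets of a gene can lie on different transcripts, and which set is right was not tested.

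Many calls belonged to genes that stood close to their E17.5 level again after birth. Of the 749 called genes 354 (47.3%) were within 0.5 log2 units of E17.5 at both Day0 and Day3, 174 of them rises and 180 falls. This set was formed from the values at those stages and is described without a test. The 174 rises were mostly of dim genes, with a median E17.5 level of 5.50 against 6.18 over all genes and 7.54 for the rises kept at Day0 and Day3. With genes of a mean under 6 left out, 302 rises and 297 falls were called at the step. Zfp3 read 5.82 and 5.96 at E17.5, 7.95 at E18.5, 6.09 and 6.08 at Day0, 5.76 and 6.24 at Day3, then 7.75 at Day7 and 7.11 at Day14. Stk32a read 5.30 on both E17.5 arrays, 7.27 at E18.5, 5.31 and 5.47 at Day0, then 7.15 at Day7, and the oocyte linker histone H1f8 read 5.51 and 5.54, 7.44, 5.66 and 5.63, then 7.03. The 3 genes, picked after their values were seen, were high at the 3 stages with 1 array. Over the 174 rises the mean of Day7 and Day14 lay above Day21 in 168 genes (96.6%), against 56.2% of all genes. The median difference was 0.61, against 0.04 over all genes. Over the 180 falls the mean of Day7 and Day14 lay below Day21 in 80%, against 43.8% of all genes, with a median of -0.36. In the 112 rises kept at Day0 and Day3 the median was -0.05, and they stood 3.03 above E17.5 at Day21. Of the kept rises 53.6% were in some list, against 9.77% of the 174 transient ones and 6.5% of all genes. The lists were chosen with earlier results of these data known, so these shares are a description only.

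**Figure D5:**
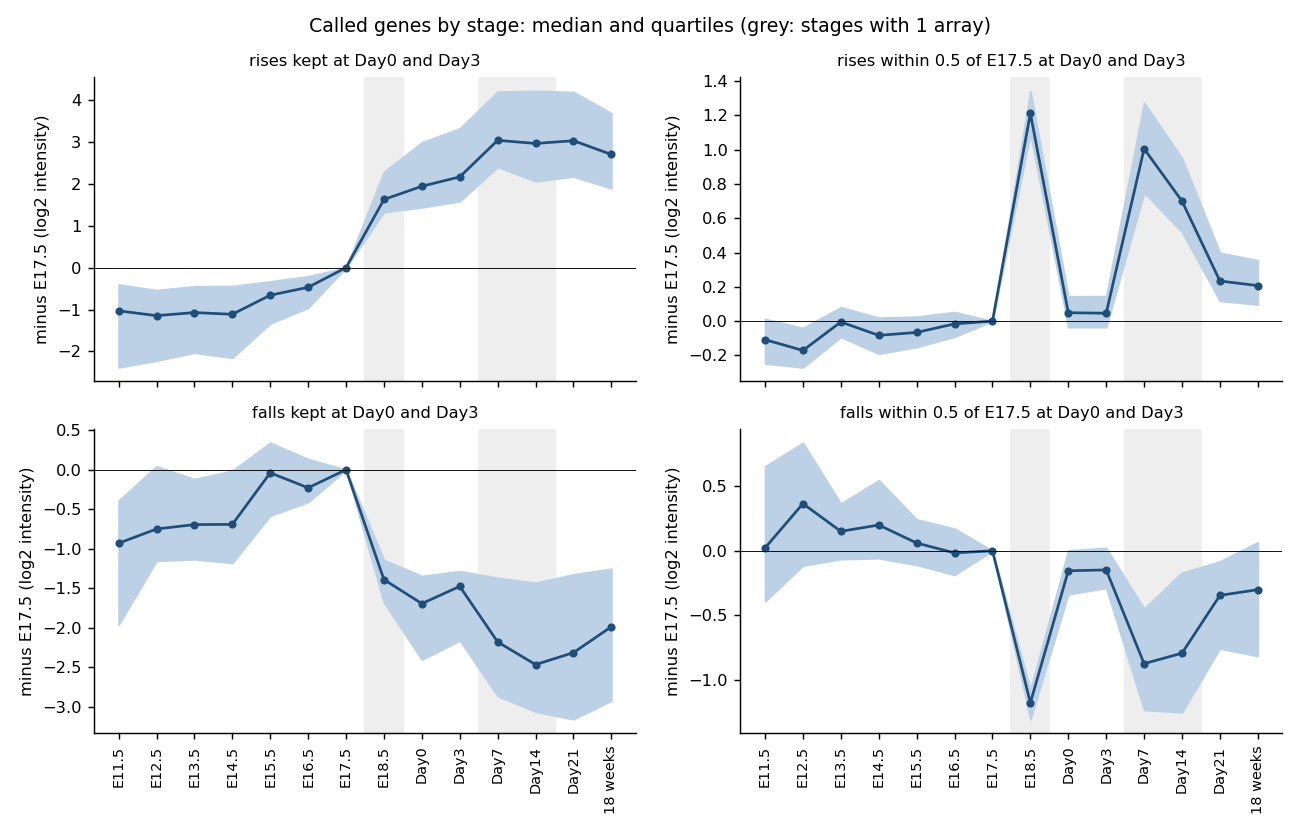
Median (points) and quartiles (band) of the log2 difference from E17.5 at the 14 stages for the rises and falls kept at Day0 and Day3 (left) and for those within 0.5 of E17.5 at both (right), with the stages of 1 array in grey. The 174 transient rises peak at E18.5 and are raised again at Day7 and Day14, where they lay 0.71 and 0.46 above Day21, whereas the 112 kept rises stay up at every later stage.

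Over all genes E18.5 shared deviations with Day7, while Day14 did not set it apart from the other fetal stages. The deviation of E18.5 from the mean of E17.5 and Day0 correlated across 18194 genes with the deviation of Day7 from the mean of Day3 and Day21 at r = 0.50, which uses different arrays on each side. For the other fetal stages with neighbours on both sides the same correlation ran from -0.12 to 0.03. With the deviation of Day14 it was 0.34 for E18.5 and between -0.32 and 0.42 for the others. Genes are not independent replicates, and what the 3 stages with 1 array share in handling is not given in the labels. Having 1 array, the stage and the occasion of that array cannot be told apart for these genes.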

How the data were processed

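Total RNA of pooled mouse livers was hybridised to 25 Affymetrix arrays. The deposited values are linear intensities per probe set that the authors made with RMA, per the submitters' processing notes, with no version given. Array medians lay between 42.6 and 46.3, and a normalisation between arrays is not described in the labels. The plan had assumed log2 values, so log2 was taken first. The number of arrays limits the precision.

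Of 45101 probe sets, 34958 had 1 gene symbol in the platform annotation, 932 several and 9211 none. The single-symbol set with the highest mean stood for each of 18194 genes, 9012 of which had several sets. limma 3.58.1 (R 4.3.3; lmFit and eBayes) took a mean for each stage from the 25 arrays together, with Benjamini-Hochberg adjustment over all genes, and the steps were tested on simulated data. Python 3.11.15, pandas 2.3.3, numpy 2.4.6 and matplotlib 3.10.9 served for tables and figures.

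Named genes were the 10 largest rises and 10 largest falls outside muscle lists, the 6 largest skeletal muscle rises, up to 4 called and 2 uncalled members of each of 56 lists, the 5 largest rises above Day0 and Day3, and 15 set genes. Other genes named were chosen after their values were seen. The members and lists were chosen with earlier results of these data known. Alternatives changed the scaling, the choice of probe set, a filter on dim genes, the variance trend, the arrays fitted, the fold, the baseline, a replicate block and each E17.5 array in turn.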

Additional observations from a re-analysis of the deposited data

Results flagged for a closer look

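The step from E17.5 to E18.5 differed from the step before it, by limma's test of the difference of the 2 steps, in 243 genes upward and 311 downward. The split was 292 and 245 with median centring and 94 and 635 with housekeeping centring. Tdo2 differed most upward, by 5.35 (SE 0.43, limma adjusted p = 7.26e-06), with steps of -0.16 and then 5.19. Prg2 followed with 5.06, from steps of -2.13 and 2.93, its E17.5 arrays being lower than those of E16.5 and E18.5. Sult2a2 differed by 4.66, from steps of 0.55 and 5.20. Eif2s3y differed by -3.22 (limma adjusted p = 0.00512) and Tnnc1 by -3.03. Sbk1 differed by -3.10 (limma adjusted p = 0.032), with a mean of 5.24 at E16.5, 6.78 at E17.5 and 5.22 at E18.5. The E17.5 arrays enter both steps, so a value high or low on them counts in both.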

How the results depend on the processing

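The 749 calls of the step stayed within 1.5 times under the other scalings, the dim filter, the variance trend, the arrays fitted, the replicate block (795, with 389 rises and 406 falls, so that falls outnumber rises) and the loss of either E17.5 array (709 to 786). They numbered 386 with the mean of all probe sets, 2540 at 1.5-fold and 69 at 4-fold. The share of calls kept at Day0 and Day3, 17.9%, was 13.2% with housekeeping centring, 25.1% with the mean of sets, 22% with the dim filter, 11.8% at 1.5-fold, 42% at 4-fold, 29.1% with E16.5 and E17.5 as the baseline, and 14.9% to 19.9% without an E17.5 array. The change of step, 554 genes, was 836 with the replicate block and 153 to 215 without an E17.5 array. The step before, 136 genes, was 60 to 114 without one. Same-numbered arrays deviated together in 38 of 55 stage pairs (r over 0.1; median 0.40, range -0.57 to 0.73) but not in all, so the numbers were not taken as a pairing. E18.5 carries the number 1.

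Signs turned as follows. With quantile normalisation Afp was -0.08, Hmgcs1 -0.24, Mki67 -0.39 and Slc4a1 -0.25. With single-transcript sets only, Otc was -0.19, Spaca3 0.27, Syap1 0.04 and 2810410L24Rik 0.01. Igf2 was -0.32 with the mean of sets. Mki67 was -0.11 with housekeeping centring, -0.08 with the replicate block and -0.09 to 0.22 without an E17.5 array. Myod1 was 0.02 with median centring, 0.04 with the block and -0.07 to 0.02 without an E17.5 array. Col1a2, at 0.00 as deposited, was 0.04 with median centring, 0.06 with the mean of sets, 0.24 with single-transcript sets, 0.21 with E16.5 and E17.5 as the baseline and -0.08 to 0.07 without an E17.5 array. Of 108 called genes named or tracked, 46 kept direction and call under every alternative. The 4-fold threshold drops smaller calls by definition. With it and the fit of the E17.5 and E18.5 arrays alone set aside, 70 kept both. The cause of these shifts was not tested, other than fewer arrays or sets.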
